A study of Homo sapiens with 2 samples.

Results

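The genes examined here lie around the NUDT6-FGF2 antisense locus at 4q27, and they are NUDT6, FGF2, SPRY1, ANXA5, EXOSC9, BBS7, BBS12 and ANKRD50. They were chosen by name, and every probe set that the platform annotation assigns to exactly 1 of these 8 symbols was taken. This gave 14 of the 41091 probe sets with a single gene symbol, and 8 of 12352 measured genes. No probe set named a member together with a second gene. The platform was the Affymetrix U133 Plus 2.0 array, on which a group of short oligonucleotides, a probe set, reports a transcript as 1 signal. RNA came from Seg-1 cells, a human lung cancer line that per the labels is the same line as H460. There was 1 array of cells transfected with FGF-AS siRNA and 1 array of cells transfected with negative control siRNA, which has no homology to known genes. Both cultures were transfected with a lipid reagent and harvested at 72 hours. No array of untransfected cells was analysed here, so what transfection itself does to both cultures cannot be seen. The siRNA concentration used for either culture is not stated in the labels.

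An antisense transcript is read from the opposite strand of a gene and is complementary to part of that gene's RNA. FGF-AS is the antisense transcript of fibroblast growth factor 2 and is a product of NUDT6, a gene that also encodes a protein with a nudix hydrolase domain. FGF2 binds heparan sulfate and tyrosine kinase receptors and drives proliferation in many cell types, and it is made as secreted and nuclear forms. The comparison asks how the antisense target, its sense partner and the genes beside them read after siRNA against FGF-AS.

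By RefSeq (GRCh38.p14), the order along chromosome 4 is ANXA5, EXOSC9, BBS7, BBS12, FGF2, NUDT6, SPRY1 and ANKRD50, with other genes in between. FGF2, EXOSC9, BBS12 and SPRY1 lie on the plus strand and NUDT6, ANXA5 and BBS7 on the minus strand. ANKRD50 has no strand in the table used. The gene bodies of FGF2 and NUDT6 overlap and face each other with their 3′ ends. EXOSC9 overlaps CCNA2, the cyclin A2 gene on the minus strand, in the same tail-to-tail way. On its other side NUDT6 stands head to head with AFG2A, a gene of an AAA ATPase, and their start windows of 300 bases shared 209 bases. RefSeq's table lists 2 start windows for NUDT6, and the outer one is used here. The inner one shared 20 bases with that of AFG2A and held none of the motifs sought. The start windows of NUDT6, FGF2 and EXOSC9 are shown because these are the antisense target, its sense partner and the neighbour with the highest ratio. They are from RefSeq (GRCh38.p14), 5′ to 3′ on the strand of the gene, with GC boxes (GGGCGG) and CCAAT boxes (CCAAT) on either strand in capitals.
NUDT6, chr4:122922919-122923218, minus strand: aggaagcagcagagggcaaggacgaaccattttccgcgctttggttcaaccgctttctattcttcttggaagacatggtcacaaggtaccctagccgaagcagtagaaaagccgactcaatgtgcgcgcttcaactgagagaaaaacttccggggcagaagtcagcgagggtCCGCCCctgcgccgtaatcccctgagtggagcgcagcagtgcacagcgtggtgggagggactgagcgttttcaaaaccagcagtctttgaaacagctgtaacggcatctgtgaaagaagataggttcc
FGF2, chr4:122826581-122826880, plus strand: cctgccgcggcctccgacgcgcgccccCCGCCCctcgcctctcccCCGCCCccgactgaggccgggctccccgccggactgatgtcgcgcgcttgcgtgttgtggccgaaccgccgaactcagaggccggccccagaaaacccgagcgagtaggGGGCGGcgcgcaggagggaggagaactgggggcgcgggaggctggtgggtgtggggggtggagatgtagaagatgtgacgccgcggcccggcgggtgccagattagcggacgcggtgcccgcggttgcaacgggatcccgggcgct
EXOSC9, chr4:121801073-121801372, plus strand: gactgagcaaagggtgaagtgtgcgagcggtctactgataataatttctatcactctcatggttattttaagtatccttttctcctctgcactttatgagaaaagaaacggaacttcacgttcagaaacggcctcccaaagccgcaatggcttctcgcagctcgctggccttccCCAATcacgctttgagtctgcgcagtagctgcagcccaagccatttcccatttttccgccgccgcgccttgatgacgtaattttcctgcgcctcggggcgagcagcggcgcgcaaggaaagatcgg

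The NUDT6 window held 1 GC box, no CCAAT box and no TATAAA, with 53.7% G and C. That GC box lies in the bases shared with AFG2A, whose own window also held 1 GC box. The FGF2 window held 3 GC boxes and neither CCAAT nor TATAAA. With 74.7% G and C it stood above 90.4% of all windows. The EXOSC9 window held 1 CCAAT box and no GC box, with 52.3% G and C. Of 35097 RefSeq windows of this length, 44.9% held GGGCGG, 34.6% CCAAT and 11.5% TATAAA on either strand. No motif overlapped another. These are matches of letters only.

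With 1 array per group there is no replicate error, and no p-value is given for any difference. The log2 ratio used below is log2 of the FGF-AS siRNA signal plus 6.1 minus log2 of the negative control siRNA signal plus 6.1. The added value, the 25th percentile of all signals, keeps very dim probe sets from giving extreme ratios and understates their change. A probe set was measured when the mean of both arrays was at least 23.9, and brighter when it was at least 145.2, the 75th percentile. The only error at hand is the disagreement between probe sets of a gene. Its SD was 0.36 on the log2 scale among brighter probe sets (3050 genes) and 0.58 among dimmer ones (2365 genes), and it does not cover differences between cultures. The median log2 ratio of all 23222 measured single-symbol probe sets was -0.07, and that of all 12352 measured genes, each by its brightest probe set, was -0.02. Past 2-fold, 253 of these genes read higher with FGF-AS siRNA and 336 lower, a split that depends on scaling, with 349 higher and 229 lower under quantile normalization. Past 1.5-fold it was 983 higher and 1176 lower, and 1346 higher and 830 lower under quantile normalization. As RNA came from whole cultures, fewer cells that express a gene and less RNA per cell cannot be told apart.

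The label of the cells was set against marker genes. KRT8, KRT18, KRT19 and KRT7, keratins of simple epithelium, were all brighter on both arrays, EPCAM was dim and CDH1 was under the signal minimum. Of 6 lung epithelium markers 5 were measured, but only HOPX was brighter, and NKX2-1, the lung lineage factor, read 11.8 with FGF-AS siRNA and 24.9 with control siRNA, with a mean under the minimum. Of 4 listed squamous markers only 2 had a single-symbol probe set, and neither was measured. Of 4 leukocyte markers 3 had such a probe set. Measured were 2 markers each of glandular epithelium, fibroblasts and leukocytes. Of these only COL1A1 was brighter (151.6 with FGF-AS siRNA and 164.3 with control siRNA).

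**Figure D1:**
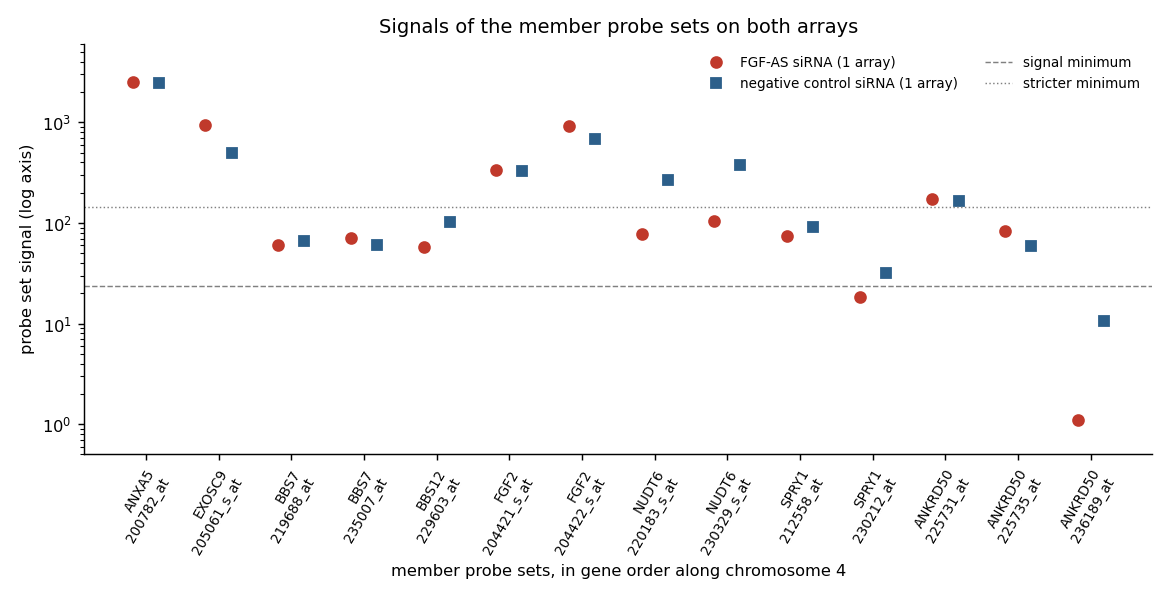
Signal of each of the 14 member probe sets on the FGF-AS siRNA array (circles) and the negative control siRNA array (squares), on a log axis, in gene order along chromosome 4. The dashed line is the signal minimum of 23.9 and the dotted line the stricter minimum of 145.2. Both NUDT6 probe sets sit far lower with FGF-AS siRNA, and EXOSC9 sits higher.

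Of the 14 member probe sets 13 were measured, and 7 of these were brighter. With FGF-AS siRNA, 2 of the 13 were lower by 2-fold or more, against 5.33% of all measured single-symbol probe sets. None was at least 2-fold higher, against 1.94%. Both of the lower ones belong to NUDT6, the gene the siRNA was aimed at, and none of the other 11 passed 2-fold in either direction. At 1.5-fold, 4 of 13 were lower, against 15.1% of all, and 1 was higher, against 7.53%. The median of the 13 was 0.02, and it was 0.05 for the 11 without NUDT6. Among these genes only NUDT6 passed 2-fold, and the other members lay between log2 ratios of -0.78 and 0.91. With 11 probe sets and shares this small, none past 2-fold is near the share over all. It is therefore not read as a trait of the locus.

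The antisense gene comes first. NUDT6 probe set 230329_s_at read 104.5 with FGF-AS siRNA and 376.9 with control siRNA, so 27.7% of the control signal was left (log2 ratio -1.79). The second probe set, 220183_s_at, read 77.8 with FGF-AS siRNA and 267 with control siRNA, with 29.1% of the control signal left (log2 ratio -1.70). Both probe sets count as brighter through their control signals, as both read under 145.2 with FGF-AS siRNA. The ratio of 230329_s_at was -5.01 times the SD between brighter probe sets and -3.08 times that between dimmer ones. For 220183_s_at these were -4.76 and -2.92 times. With FGF-AS siRNA both probe sets stayed above the signal minimum of 23.9. This minimum is the median over all non-control probe sets and not a detection limit. Whether the signal left at 72 hours was NUDT6 RNA or background was not tested.

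The 2 NUDT6 ratios differed by 0.09, a close match. Among 1990 genes with exactly 2 brighter probe sets the median difference was 0.25, and 21.2% of them differed by less than NUDT6 did. Single brighter probe sets with lower ratios exist, as the NUDT6 probe sets ranked 39th and 44th lowest of 12241. Of the 3050 genes with 2 or more brighter probe sets, however, NUDT6 had the lowest mean log2 ratio, at -1.75. Only 9 of these genes (0.295%) had all their brighter probe sets at least 2-fold lower, and 8 had all at least 2-fold higher. NUDT6 is among these genes by its control values, so its rank there is a description only.

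Over the 2 arrays, the genes most like NUDT6 were sought among those 9, by the smallest difference in mean log2 ratio. The nearest was TXNIP, an inhibitor of thioredoxin and of glucose uptake, at -1.68 over 3 probe sets. CCN1, a matricellular protein gene, followed at -1.34 over 2. Next came USH1C, a scaffold protein gene, at -1.28, SPATA7, a ciliary gene, at -1.24, and ITSN1, an endocytic scaffold gene, at -1.23. Pooled over these genes, single probe sets ranged from -2.12 (TXNIP) to -1.05 (USH1C). With 2 arrays a pattern is a single ratio, so this likeness concerns size only. In size only TXNIP (-1.68) was near the NUDT6 mean of -1.75. The other genes named, from -1.34 to -1.23, were lower with FGF-AS siRNA by clearly less. With FGF-AS siRNA a TXNIP probe set (130.1) and ITSN1 probe sets (129.2 and 122.2) read under 145.2. These too count as brighter through their control signals.

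**Figure D2:**
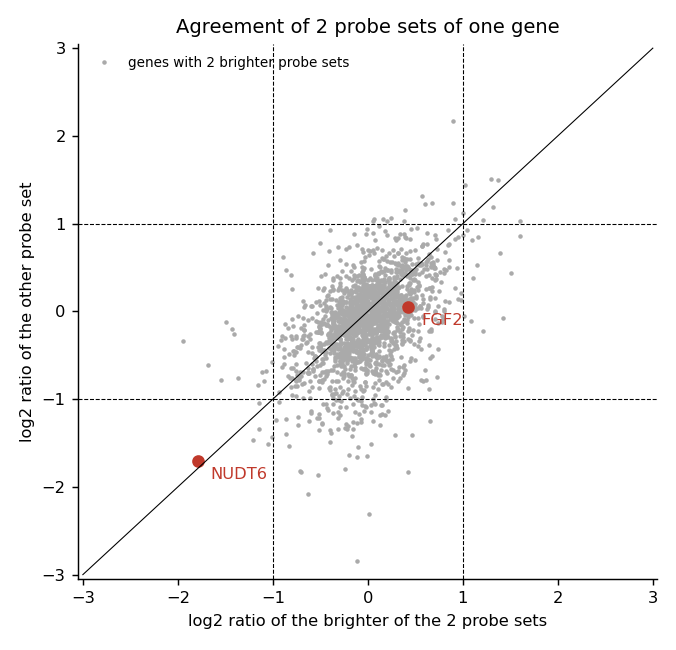
Each point is 1 of the 1990 genes with exactly 2 brighter probe sets, with the log2 ratio (FGF-AS siRNA over negative control siRNA) of the brighter on the horizontal and of the other on the vertical axis. The solid line marks equal ratios and the dashed lines 2-fold. NUDT6 (-1.79 and -1.70) lies close to the line of equal ratios, and FGF2 (0.43 and 0.05) lies inside 2-fold.

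FGF2, the sense partner, was not past 2-fold or 1.5-fold on either probe set. Probe set 204422_s_at read 911.8 with FGF-AS siRNA and 676.2 with control siRNA, a log2 ratio of 0.43. Probe set 204421_s_at read 338.8 with FGF-AS siRNA and 326.7 with control siRNA (log2 ratio 0.05). The ratio of 204422_s_at was 1.20 times the SD between brighter probe sets and that of 204421_s_at 0.14 times. Both probe sets were thus slightly higher with FGF-AS siRNA, by amounts near or under the disagreement seen between probe sets of a gene.

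The 2 FGF2 ratios differed by 0.38, more than in 67.4% of genes with exactly 2 brighter probe sets. The mean of both was 0.24, which ranked 456th highest of 3050 genes. By its brighter probe set FGF2 stood at percentile 86.6 of measured genes. Under other scalings of the arrays and other added values the first ratio ran from 0.42 to 0.48 and the second from 0.05 to 0.14. Where the probes of each set lie relative to the NUDT6-FGF2 overlap, and which strand each reads, was not examined.

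AFG2A, which starts beside NUDT6 and runs the other way, did not share its ratio. Probe set 229075_at read 458.7 with FGF-AS siRNA and 360.3 with control siRNA (log2 ratio 0.34), and 242251_at read 195.3 with FGF-AS siRNA and 190.8 with control siRNA (0.03). The dimmer 241546_at read 37 with FGF-AS siRNA and 52.1 with control siRNA, a log2 ratio of -0.43. Genes whose start windows overlap thus read very differently on these arrays, with NUDT6 low on both probe sets and AFG2A within 1.5-fold on all 3.

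**Figure D3:**
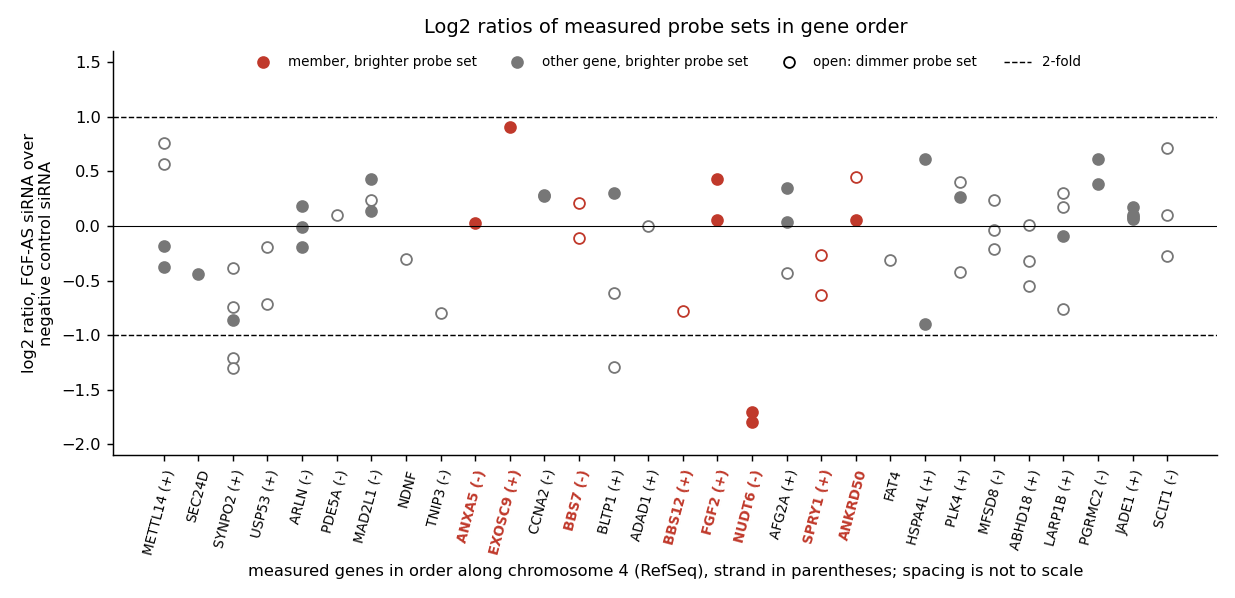
Log2 ratio (FGF-AS siRNA over negative control siRNA) of every measured probe set of the members (red) and of other listed genes (grey), in gene order along chromosome 4 with the strand in parentheses; filled points are brighter and open points dimmer probe sets. Dashed lines mark 2-fold. NUDT6 is the only gene with all its measured probe sets past 2-fold, and EXOSC9 is the highest point at 0.91.

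The member with the highest ratio was EXOSC9, a subunit of the RNA exosome, the complex that trims and degrades RNA from its 3′ end. Its only probe set, 205061_s_at, read 942.6 with FGF-AS siRNA and 500.2 with control siRNA. This is 1.88-fold and a log2 ratio of 0.91, or 2.53 times the SD between brighter probe sets. EXOSC9 ranked 345th highest of 12352 measured genes. It was the only one of the 8 members at least 1.5-fold higher, against 7.96% of measured genes. A second probe set to check it was lacking.

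CCNA2, which overlaps EXOSC9 on the opposite strand and encodes a cyclin of S phase and mitosis, read higher by less. Its probe set 213226_at read 1171.6 with FGF-AS siRNA and 961.9 with control siRNA (log2 ratio 0.28), and 203418_at read 998.6 with FGF-AS siRNA and 824.4 with control siRNA (0.27), both under the SD of 0.36 between brighter probe sets. Both partners of this tail-to-tail pair therefore had ratios above 0. In the NUDT6-FGF2 pair NUDT6 read lower. The FGF2 ratios of 0.43 and 0.05 were near or under the disagreement between probe sets of a gene.

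Other subunits and cofactors of the RNA exosome did not share this ratio as a group. Of 16 listed genes 15 were measured, with 8 above 0 and 7 below and a median log2 ratio of 0.01, and with 11 above 0 under median centring. None was at least 2-fold higher (2.05% of measured genes were) and none at least 2-fold lower (2.72%). EXOSC6, a ring subunit, was highest at 0.70 on 227696_at (346.2 with FGF-AS siRNA and 211 with control siRNA), but its other probe sets reached down to -0.62. SKIC2, a cytoplasmic exosome helicase, was lowest at -0.45. EXOSC9 lay above all 15 by the brightest probe set, while a dim probe set of EXOSC3, 227913_at, reached 1.04.

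BBS12, which encodes a chaperonin-like protein needed to assemble the BBSome, was the lowest member after NUDT6. The BBSome is a protein coat that carries membrane receptors into and out of primary cilia. The only BBS12 probe set, 229603_at, was dim and read 57.1 with FGF-AS siRNA and 102.4 with control siRNA. Its log2 ratio of -0.78 was -1.34 times the SD between dimmer probe sets, and it ranked 1534th lowest of 10981 dimmer probe sets. NUDT6 and BBS12 were the 2 of 8 members at least 1.5-fold lower, against 9.52% of measured genes.

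BBS7, a subunit of the BBSome, was dim on both probe sets with small ratios of opposite sign. Probe set 235007_at read 71.4 with FGF-AS siRNA and 60.7 with control siRNA, a log2 ratio of 0.21. Probe set 219688_at read 60.6 with FGF-AS siRNA and 66.1 with control siRNA, a log2 ratio of -0.11 that turned to 0.04 under quantile normalization. No direction can be given for BBS7.

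The other genes of the BBSome and its chaperonins, 11 in all and all measured, were mostly lower with FGF-AS siRNA. Of these 9 were below 0 (8 under median centring), with a median log2 ratio of -0.53 and an SD across genes of 0.47. At least 1.5-fold lower were 5 of 11, against 9.52% of measured genes, and none was 1.5-fold higher. Under the other scalings 4 of 11 were 1.5-fold lower, against 830 to 960 of 12352 measured genes. The 5 genes were BBS9 (79.3 with FGF-AS siRNA and 166.4 with control siRNA, log2 ratio -1.01), BBS5 (-1.01), LZTFL1 (-0.97), BBS4 (-0.95) and BBIP1 (-0.61). LZTFL1 regulates the entry of the BBSome into cilia and the others are its subunits. ARL6, the small GTPase that recruits the BBSome to membranes, was highest at 0.33.

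Where these genes had several measured probe sets, most agreed in sign. The 3 probe sets of BBS9 ran from -1.44 to -0.91, the 3 of BBIP1 from -0.71 to -0.56, and the 2 of BBS4 were -0.95 and -0.40. For LZTFL1 they ran from -1.23 to -0.13. Only BBS5 and BBS9 were past 2-fold, both narrowly, against 2.72% of measured genes that were at least 2-fold lower. Neither was with a doubled offset or under median centring, quantile normalization or loess, while the median of the list stayed between -0.63 and -0.39 over all alternatives. BBS12 lay on the lower side with this list, while BBS7 had no clear direction.

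SPRY1 encodes Sprouty 1, an inhibitor of receptor tyrosine kinase signalling that FGF signalling induces as a feedback. Both probe sets were dim and lower with FGF-AS siRNA. Probe set 212558_at read 74 with FGF-AS siRNA and 90.3 with control siRNA, a log2 ratio of -0.27. Probe set 230212_at read 18.2 with FGF-AS siRNA and 31.6 with control siRNA, a log2 ratio of -0.63, and was over the minimum by its control value. Both ratios were near or under the SD of 0.58 between dimmer probe sets.

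In the rest of the Sprouty and SPRED family, 5 of 6 genes were measured, with 3 above 0 and 2 below and a median of 0.11 (4 above 0 under the other scalings). SPRY4 was highest, at 0.65 (222 with FGF-AS siRNA and 139 with control siRNA). SPRED3 was lowest and the only gene past 2-fold by its brightest probe set, at -1.15, against 2.72% of measured genes at least 2-fold lower. SPRED3 was dim, with 19.9 with FGF-AS siRNA and 51.5 with control siRNA. It was not past 2-fold with a doubled offset and was too dim for the stricter minimum. The feedback inhibitors thus showed no shared direction.

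The receptors, adaptors and heparan sulfate carriers that FGF2 acts through were also mixed. Of 16 listed genes 13 were measured, with 5 above 0 and 8 below and a median of -0.04. By the brightest probe set none was past 2-fold, against 2.72% of measured genes lower and 2.05% higher. Under median centring 7 were above 0 and 6 below. FGFR1, the receptor with 6 measured probe sets, ran from -0.56 to 0.30. SDC2 stood at 0.17 on its brightest probe set and -1.01 on 212157_at, both dim. GPC4, a glypican, was highest at 0.71 and FGFBP1, a secreted FGF-binding protein gene, lowest at -0.75, and both were dim.

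ANXA5 encodes annexin A5, which binds phosphatidylserine in the presence of calcium. It differed least of the members: its probe set 200782_at read 2489.2 with FGF-AS siRNA and 2447 with control siRNA, a log2 ratio of 0.02. By their brightest probe sets the 8 other measured annexin genes of 11 listed were all below 0, against 6398 of 12352 measured genes, with a median of -0.23. By the mean over probe sets 5 of 8 were below 0, as dim probe sets of ANXA6 (0.64), ANXA11 (0.37) and ANXA2 (0.31) were above 0. ANXA4 was lowest at -0.77 (911.7 with FGF-AS siRNA and 1562.6 with control siRNA, and -0.50 on its other probe set), and ANXA2 highest at -0.08. By the brightest probe set none passed 2-fold, against 2.72% of measured genes lower and 2.05% higher. At least 1.5-fold lower were 2 of 8, against 9.52% of measured genes. Under the other scalings 1 of 8 was, against 830 to 960 of 12352 measured genes. ANXA5 lay above the others by the brightest probe set, but under ANXA6 (0.25) and ANXA11 (0.12) by the mean over probe sets.

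ANKRD50, a gene of an ankyrin repeat protein linked to endosomal recycling, had 3 probe sets. Probe set 225731_at read 171.1 with FGF-AS siRNA and 164.4 with control siRNA, a log2 ratio of 0.06. Probe set 225735_at was dim and read 83.5 with FGF-AS siRNA and 59.6 with control siRNA, a log2 ratio of 0.45 that was 0.77 times the SD between dimmer probe sets. The last, 236189_at, read 1.1 with FGF-AS siRNA and 10.6 with control siRNA, under the minimum on both arrays, so it was left out of the counts of measured probe sets. The measured probe sets were thus level or slightly higher.

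**Figure D4:**
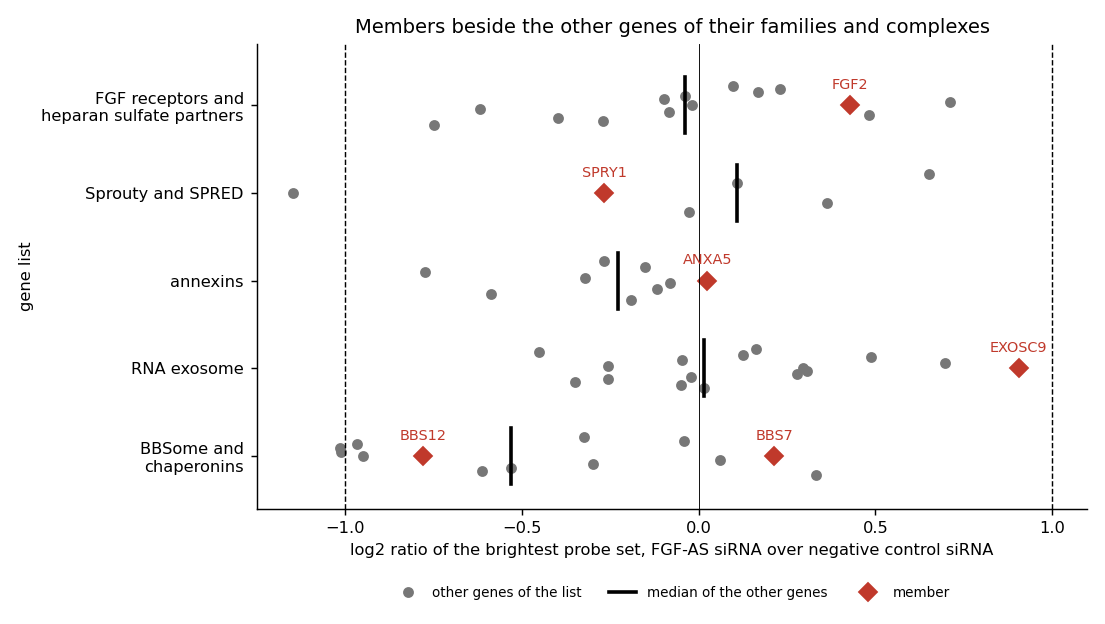
Log2 ratio (FGF-AS siRNA over negative control siRNA) of the brightest probe set of each member (red diamonds) beside the other measured genes of its family or complex (grey points), with the median of the other genes as a black bar and 2-fold as dashed lines. EXOSC9 (0.91) lies above all other exosome genes, and most BBSome genes lie left of 0 with a median of -0.53.

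Across the wider stretch of chromosome 4, no other gene was past 2-fold by its brightest probe set. Of all measured genes 2.72% were at least 2-fold lower and 2.05% higher, so with 22 genes this is near the share over all. Dimmer measured probe sets of SYNPO2 and BLTP1 were past 2-fold lower. Of 32 listed neighbours 22 were measured, with 9 above 0, 12 below and 1 at 0 (12 above 0 and 10 below under quantile normalization). Their median log2 ratio was -0.05, against -0.02 over all measured genes, and it turned to 0.10 at the stricter minimum. The highest were MAD2L1, a spindle checkpoint gene, at 0.43, PGRMC2, a membrane haem-binding protein gene, at 0.38, and AFG2A at 0.34. The lowest were HSPA4L, a chaperone gene, at -0.90 on 205543_at but 0.62 on its other probe set, SYNPO2, an actin-binding protein gene, at -0.86, and the dim TNIP3 at -0.80. At least 1.5-fold lower were 4 of 22 genes, against 9.52% of measured genes, and none was 1.5-fold higher, against 7.96%. By the mean over probe sets 2 of 22 were 1.5-fold lower, against 1366 of 12352 measured genes.

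Of the lower neighbours, SYNPO2 had all 5 measured probe sets below 0, from -1.30 to -0.38, and USP53, the fourth, stood at -0.71. Both lie beyond ANXA5, away from FGF2 and NUDT6. BLTP1, between BBS7 and BBS12, was at 0.31 on its brightest probe set and reached -1.30 on a dim one. Seen along the chromosome, the low NUDT6 ratio was not shared by the genes next to it. FGF2 read 0.43 and 0.05 on its probe sets, and the probe sets of AFG2A ran from -0.43 to 0.34. Next beyond these, BBS12 at -0.78 and SPRY1 at -0.27 and -0.63 read lower, all dim and within 2-fold.

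**Figure D5:**
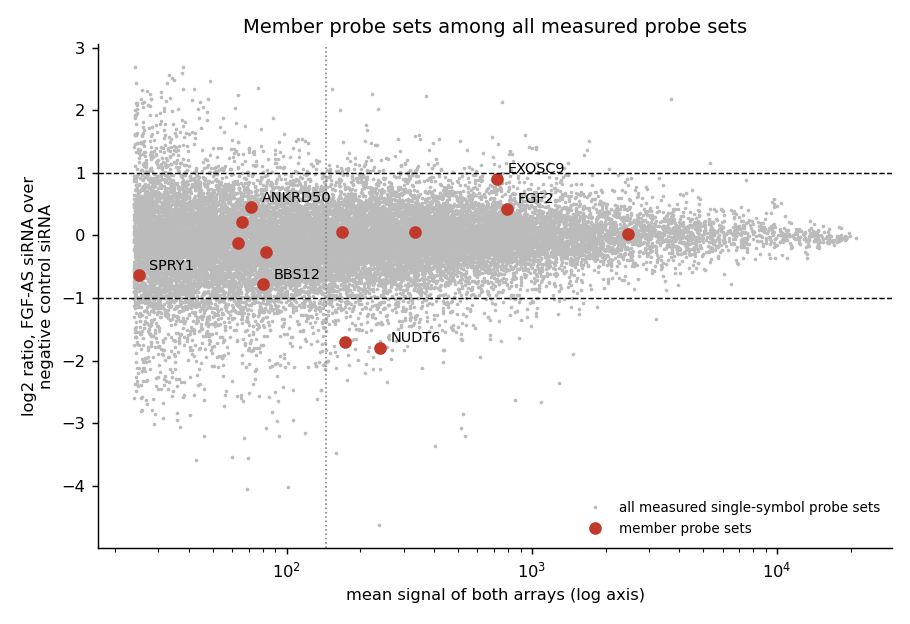
Log2 ratio (FGF-AS siRNA over negative control siRNA) against the mean signal of both arrays (log axis) for all 23222 measured single-symbol probe sets (grey) and the 13 measured member probe sets (red). Dashed lines mark 2-fold and the dotted line the stricter minimum of 145.2. Of the member probe sets only those of NUDT6 lie past 2-fold, and the dimmer probe sets of SPRY1, BBS12 and ANKRD50 lie where ratios of all probe sets spread widely.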

How the data were processed

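The authors deposited 1 linear intensity per probe set and array. Per the submitters' processing notes the authors used GCOS and MAS5, and version, scaling target and detection calls are not given in the sources used here. Median intensities were 23.1 with FGF-AS siRNA and 25.5 with control siRNA over 54613 non-control probe sets, so the arrays were used as deposited, and how they were scaled against each other is unknown. The number of arrays limits the precision.

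Of the 54613 probe sets 41091 had 1 gene symbol, 1801 had several and 11721 were unnamed here. RefSeq held the gene ID of 41037 and changed no symbol. Log2 ratios, filters and the SD between probe sets of a gene were computed in Python 3.11.15 with numpy 2.4.6, pandas 2.3.3 and statsmodels 0.14.6, and checked on simulated data. The brightest probe set stood for a gene.

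The members and lists were chosen with earlier results of these data known. Named were all members, the 3 highest and 3 lowest neighbours, the highest, the lowest and any gene past 2-fold in each other list, and the 5 genes nearest to NUDT6. CCNA2, FGFR1, SDC2, SPRED1, SPRED2, USP53, BLTP1, LZTFL1, BBS4 and BBIP1 were named after their values were seen. Alternatives were other offsets (12.2 and 1), median centring, quantile normalization, loess, other signal minimums, means over probe sets, and leaving out probe sets ending in _s_at or _x_at, or NUDT6.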

Additional observations from a re-analysis of the deposited data

How the results depend on the processing

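The 10 alternatives gave 252 values. Of the ratios and medians among them, only those of NUDT6 were past 2-fold at the main setting, and none of these reversed. The NUDT6 ratios ran from -1.84 to -1.58 over other offsets, scalings and the stricter minimum. The count of member probe sets past 2-fold was 0 without NUDT6, and 0 when _s_at and _x_at probe sets, which include both of NUDT6, were dropped; NUDT6, FGF2 and EXOSC9 have no value there. It was 3 without a filter on dim probe sets, which adds the dim 236189_at of ANKRD50. The count past 2-fold in the BBSome list was 0 with the doubled offset, median centring, quantile normalization, loess and the stricter minimum. In the Sprouty and SPRED list it was 0 with the doubled offset and the stricter minimum. Without a filter it was 1 for the FGF receptor and heparan sulfate list and 3 for the wider neighbourhood. Medians near 0 changed sign: that of the member probe sets was -0.04 without a filter and without _s_at and _x_at probe sets, and with means over probe sets those of the exosome and Sprouty lists were -0.02 and -0.15. The median of the FGF receptor list was 0.02 under median centring. BBS7, BBS12 and SPRY1 are too dim for the stricter minimum. No paired analysis was possible because each group holds 1 array. A dim signal cannot be told from background, as no detection calls were used.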
